A study of Mus musculus with 30 samples.

Results

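The annexins examined here were Anxa1, Anxa2, Anxa3, Anxa4, Anxa5, Anxa6, Anxa7, Anxa8, Anxa11 and Anxa13, 10 of the 46078 genes in the count table of the mouse colon. They were matched by gene symbol, each symbol matched 1 gene, and all 10 passed the filter on low counts in every comparison. Anxa9 and Anxa10, the remaining members of the family in mouse, are given beside them.

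RNA-seq was performed on colon tissue from 30 C57BL/6J mice in 5 groups of 6. Females and males received a control diet (CD F, CD M) or a high-fat diet (HFD F, HFD M) for 13 weeks with vehicle injections, and 1 further group of males on the high-fat diet received the estrogen 17β-estradiol (HFD+E2 M) at 0.5 mg/kg body weight. Each mouse had 9 intraperitoneal injections over the last 3 weeks, the females were not ovariectomized, and the mice entered the study at 5 to 6 weeks of age. The tissue was whole distal colon, in which fewer cells of a type and less RNA per cell cannot be told apart. Each library came from a separate mouse.

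Annexins are cytosolic proteins that bind the acidic phospholipids of membranes when calcium rises, through a conserved core of repeats, and differ mainly in the tail before that core. Anxa1 is released by leukocytes and epithelia, acts on formyl peptide receptors to limit inflammation and help mucosal repair, and is induced by glucocorticoids in many tissues. Anxa2 pairs with S100a10 at the cell surface, Anxa5 binds phosphatidylserine on dying cells, and Anxa13 is the annexin known for its intestinal epithelial expression. Anxa1 is also abundant in stratified squamous epithelium, the epithelium of skin, esophagus and anal canal. Its basal layer is marked by the keratin Krt5, and its upper layers in mucosa such as the esophagus by the keratin Krt13. Whether the annexins followed these keratins from library to library was therefore asked as well.

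The libraries held 8667177 to 17243712 counts on genes. The 14 colon epithelium markers examined, among them Krt20, Cdx2 and Muc2, were all detected in every group, and their summed level ranged from 6473 to 8885 TPM (read density per transcript length, scaled to the same total in every library) in the CD libraries. It was 5709 to 8789 TPM in HFD F, lowest in replicate 3, and 5972 to 8579 in HFD M, lowest in replicate 4. In HFD+E2 M it was 6803 to 8776 TPM. In 6 libraries both Krt5 and Krt13 exceeded 1 TPM. These were HFD F replicates 1, 3, 4 and 5 and HFD M replicates 2 and 4, so results that rest on them are given with and without them.

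The members lie on different chromosomes apart from Anxa7, Anxa8 and Anxa11. In the coordinates of the files (GRCm38), Anxa1 spans chr19:20373428-20390944 on the minus strand, Anxa2 chr9:69453620-69491795 on the plus strand and Anxa8 chr14:34085981-34100571 on the plus strand. Anxa6 spans chr11:54979108-55033445 and Anxa13 chr15:58341874-58364148, both on the minus strand. The principal transcript had 14 exons in Anxa1, 13 in Anxa2, 12 in Anxa8 and 26 in Anxa6 in the GENCODE vM21 annotation. Anxa8 shares its locus with the protein-coding gene A630023A22Rik on the opposite strand, Anxa11 with Anxa11os and Anxa1 with the noncoding RNA 1500015L24Rik. Anxa2 does so with the antisense gene Gm16144 and Anxa4 with the noncoding RNA Gm44036. The strand setting of the counting was not given in the sources used here, so these counts may include reads of the overlapping gene. Genes on the same strand overlap Anxa2 (Mir3109), Anxa3 (Gm42603) and Anxa5 (Mir7009).

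Sequence before the start of transcription was read from RefSeq (GRCm38.p6), where 7 of the 10 members had an entry. Anxa3, Anxa6 and Anxa13 had none there. The stretches below belong to Anxa1, the annexin that rose with the keratins, and to Anxa2 and Anxa8, which were tested for the same relation and did not pass. Capitals mark a TATA box (TATAAA), an AP-1 site (TGANTCA) or a GC box (GGGCGG), each searched on both strands in the 250 bases before the start.
Anxa1 at chr19:20390686-20390715, minus strand: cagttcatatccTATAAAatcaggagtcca
Anxa2 at chr9:69453433-69453619, plus strand: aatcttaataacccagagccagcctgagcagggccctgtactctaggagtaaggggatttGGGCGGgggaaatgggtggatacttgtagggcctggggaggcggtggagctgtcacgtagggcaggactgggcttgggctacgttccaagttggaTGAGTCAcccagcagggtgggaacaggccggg
Anxa8 at chr14:34085729-34085978, plus strand: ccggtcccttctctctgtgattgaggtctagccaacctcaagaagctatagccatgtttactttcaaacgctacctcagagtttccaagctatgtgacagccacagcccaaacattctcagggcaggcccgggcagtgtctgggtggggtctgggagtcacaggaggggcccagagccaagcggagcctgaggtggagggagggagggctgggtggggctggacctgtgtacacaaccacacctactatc
The TATA box of Anxa1 lay at bases -32 to -27 from the RefSeq start. An Anxa1 transcript in GENCODE begins further upstream, so only a short stretch is shown, and the Anxa2 stretch stops where the gene begins in the files. Anxa2 had an AP-1 site at bases -95 to -89 and a TATA box nearer its start, and Anxa8 had none of these motifs. Among the 32851 RefSeq promoters, 12.4% held the TATA box, 6.75% the AP-1 site and 32.7% the GC box. The palindromic estrogen response element was found in 0.0639% of promoters and in the window of none of the 7 members with an entry.

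All 10 annexins were expressed in the colon, and Anxa2 was the most abundant. On the TPM scale, which accounts for transcript length, the mean over the 30 libraries was 297.5 for Anxa2, 151 for Anxa1, 133 for Anxa8, 125 for Anxa3 and 108 for Anxa4. Anxa7 averaged 77.4 TPM, Anxa5 42.5, Anxa6 37.0 and Anxa11 31.4. Anxa13 was the least abundant at 4.56 TPM, read from 28 to 92 counts per library. Its gene model in the files is shorter than that of GENCODE vM21, which runs from 58341471 to 58389244 as a processed transcript with no principal transcript, so its TPM values cover the model of the files alone, and counts were taken as deposited. Anxa2 alone made up 29.6% of the summed annexin TPM.

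Anxa1 varied most between libraries. Its highest level, 524 TPM in HFD F replicate 1, was 8.07 times its lowest, 65.0 TPM in HFD F replicate 6, and both were in the same group. For the other 9 members the highest library was 1.90 to 4.23 times the lowest. The coefficient of variation of Anxa1 over the libraries was 68.1%, against 15.6% for Anxa5. By group mean Anxa1 was ordered HFD F, HFD M, CD M, HFD+E2 M and CD F. Neighbouring groups in this order overlapped, as they did in all 40 neighbouring pairs over the 10 members.

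**Figure D1:**
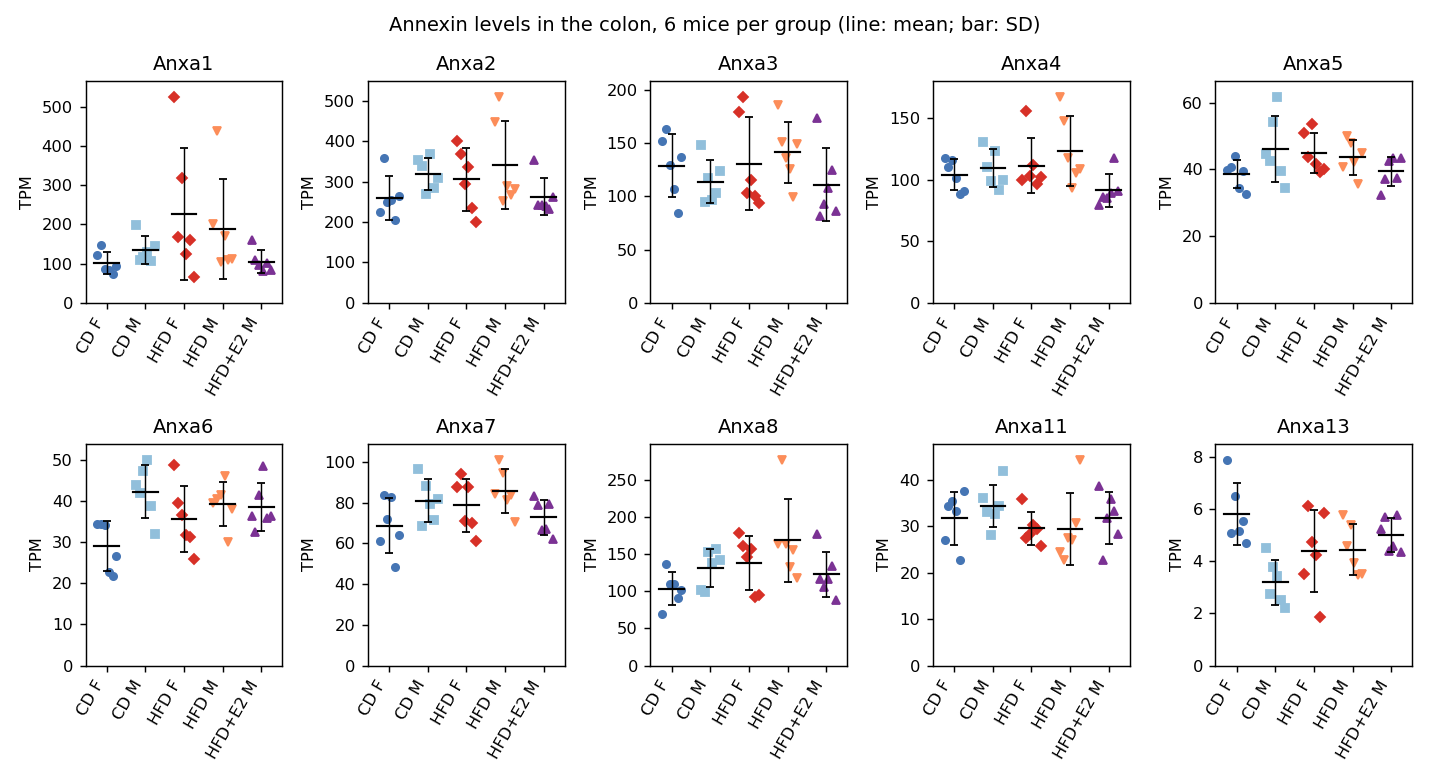
Level of each annexin in TPM (y axis, from 0) in the 5 groups (x axis). Each point is 1 mouse, the horizontal line is the mean and the bar the SD of 6 mice. Anxa1 reached 524 and 318 TPM in HFD F and 437 TPM in HFD M, whereas Anxa13 in CD F lay above every CD M mouse.

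Anxa1 rose with the squamous keratins in a fit over all 30 libraries with the groups as terms. It was the only one of the 10 that passed this test. By group, its Pearson r with the keratins was 0.73 in HFD F and 0.79 in HFD M. In CD F it was 0.18, and it was negative in CD M (-0.48) and HFD+E2 M (-0.40). The level of Anxa1 in CD F was 74.2 TPM at the lowest, 90.2 at the median and 148 at the highest. In CD M these values were 108, 123 and 199 TPM. They were 65.0, 164 and 524 TPM in HFD F and 104, 141 and 437 TPM in HFD M. In HFD+E2 M they were 81.2, 99.1 and 159 TPM. The ranges of all 5 groups overlapped, and the 3 highest libraries were in the HFD groups.

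Krt5 and Krt13 were nearly absent from most of the mice. HFD F replicate 1 had 78.1 TPM of Krt5 and 417 of Krt13, and its Anxa1 was 524 TPM. HFD F replicate 3 had 102 TPM of Krt5 and 369 of Krt13, with Anxa1 at 318 TPM. HFD M replicate 2 had less of both keratins, 19.2 TPM of Krt5 and 81.9 of Krt13, and its Anxa1 was 437 TPM. These 3 libraries were the highest in Anxa1 of all 30.
The other keratin-bearing libraries were not set apart in Anxa1. HFD F replicate 4 held 63.0 TPM of Krt5, 273 of Krt13 and 504 of Krt14, another basal keratin, and its Anxa1 was 125 TPM. HFD F replicate 5 had 15.3 TPM of Krt5 and 161 of Anxa1. HFD M replicate 4 had 5.47 TPM of Krt5 and 172 of Anxa1. For comparison, HFD M replicate 1, in which both keratins were listed at 0, had 201 TPM of Anxa1. In the 24 libraries without keratin above 1 TPM for both genes, Krt5 was at most 0.872 TPM and Krt13 at most 3.32 TPM.

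The keratin score was the mean log2 CPM (counts scaled to library size) of Krt5 and Krt13. In edgeR's quasi-likelihood test over all 30 libraries with the 5 groups as terms, Anxa1 rose by 0.125 ± 0.0276 (SE) log2 units for each log2 unit of the score (Benjamini-Hochberg adjusted p = 0.00934 over 16060 genes). Among the 10 annexins 1 was called, and it rose; of all genes tested 1.6% were called and 1.42% rose. DESeq2 also called Anxa1 alone of the 10, and 413 of 30081 genes. The slope was 0.24 with the squamous list that leaves out Krt5 and Krt13 as the score, on that score's own scale. The call was lost without HFD M replicate 2 (slope 0.103, adjusted p = 0.107) and without HFD F replicate 6 (slope 0.105, adjusted p = 0.0807), and without the 6 keratin-bearing libraries the slope was -0.02. In the libraries that then remained the keratins had few counts, so that last slope rests on little spread in the keratins.

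The other members showed no slope past the threshold. Anxa13 had a negative slope of -0.05 (unadjusted p = 0.0173, adjusted p = 0.392 in edgeR) and Anxa8 a slope of 0.04 (adjusted p = 0.682). The remaining 7 slopes ran from -0.02 for Anxa4 to 0.02 for Anxa6.

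**Figure D2:**
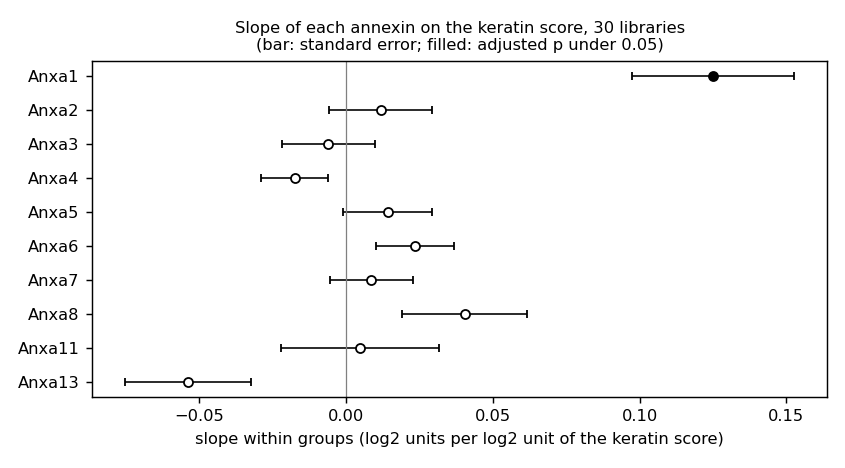
Slope of each annexin on the keratin score within groups (x axis, log2 units per log2 unit of the score) over 30 libraries. Points are edgeR estimates, bars are standard errors, and the filled point, Anxa1 at 0.125, is the one with an adjusted p under 0.05.

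As a correlation after subtracting group means, Anxa1 had a Pearson r of 0.647 (two-sided permutation p = 0.0158 with 100000 permutations within groups) and a Spearman rho of 0.40 (permutation p = 0.0678) over 30 libraries. Without HFD F replicates 1 and 3, the libraries farthest from the median score, r was 0.523. The score was unevenly spread, with its largest gap of 2.57 log2 units between 24 lower libraries and 6 higher ones. Within the 24 lower libraries r was -0.034. Within the 6 higher ones, from HFD F and HFD M, r was 0.367, computed without subtracting group means. The pooled value was thus reached within neither set. By group, r was 0.73 in HFD F and 0.79 in HFD M, which hold the 6 higher libraries, and 0.18, -0.48 and -0.40 in CD F, CD M and HFD+E2 M. In CD F and HFD+E2 M, Krt5 had at most 2 and 4 counts per library and Krt13 at most 19 and 3. The r of CD F and HFD+E2 M therefore rests on few keratin counts. In CD M the highest counts were 26 for Krt5 and 58 for Krt13. That of the 24 lower libraries also rests on few counts, though on more in CD M. In all, 10 such relations were computed. An r over 0.5 was reached by Anxa1 alone among the members and by 2.43% of the genes tested.

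**Figure D3:**
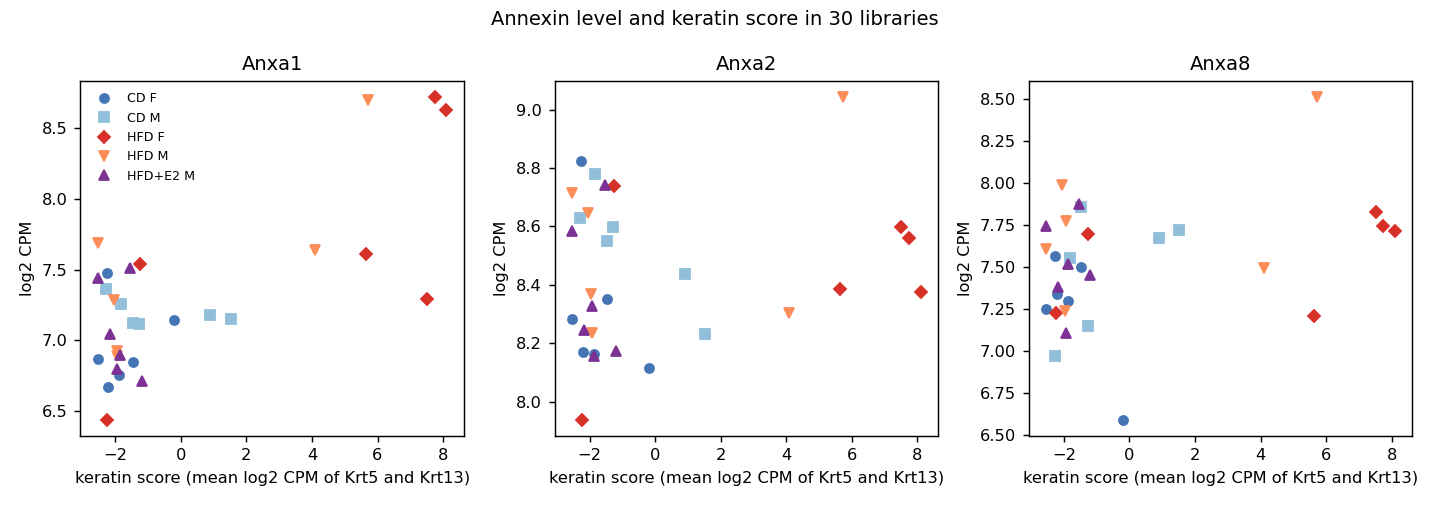
Level of Anxa1, Anxa2 and Anxa8 (y axes, log2 CPM) against the keratin score (x axis, mean log2 CPM of Krt5 and Krt13) in 30 libraries, with colour and shape marking the group. Anxa1 was highest in 3 of the 6 libraries to the right of the gap and spread widely in the rest, whereas Anxa2 and Anxa8 showed no slope past the threshold.

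Other squamous genes rose with this score, and as markers of the same epithelium they are not independent of it. Of 21 tested genes in a list of 23 squamous markers, 19 rose with the score (median slope 0.79 over the list and 0.00 over all genes). The summed squamous level was 125 to 1822 TPM in HFD F, 151 to 960 in HFD M and 95.7 to 187 in CD F. Of the list, 6 genes, among them Ivl, Dsg3 and Sprr1b, were listed at 0 in all CD F libraries. Markers of other cell types also moved with the score. Slopes were positive for 0 of 13 tested colon epithelium markers (1 called lower), 10 of 10 for smooth muscle and 5 of 5 for fibroblasts. They were positive for 0 of 8 for B cells, 3 of 10 for myeloid cells, 2 of 7 for endothelium and 3 of 5 for adipocytes. By edgeR 0 were called in these lists. DESeq2 called 2 of 12 myeloid markers and 0 in the B cell, endothelial and adipocyte lists. The part of all these lists in the Anxa1 result was not tested beyond the fits given here.
Anxa9, an annexin outside the 10, was read from 48, 60 and 27 counts in HFD F replicates 1, 3 and 4 and 49 in HFD M replicate 2. It had at most 11 counts in the other 26 libraries, and edgeR's filter on low counts left it untested between the groups and on the keratin score. DESeq2, run without that filter, called it higher in HFD F vs CD F and on the keratin score. Anxa10 was listed at 0 in every library.

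Between the sexes on CD, Anxa13 was higher and Anxa6 lower in females. Anxa13 ranged from 4.71 TPM through a median of 5.33 to 7.87 in CD F, and from 2.21 through 3.08 to 4.49 in CD M. Every CD F mouse lay above every CD M mouse. The means were 5.80 ± 1.18 TPM (SD, n = 6) in CD F and 3.19 ± 0.867 TPM (SD, n = 6) in CD M, a log2 fold change of 0.86 ± 0.18 (SE, edgeR adjusted p = 0.0129). The exact two-sided permutation test gave p = 0.00216, the smallest that 6 against 6 allow. The groups were separate in this way for 2.16% of the genes tested.

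Anxa6, the largest annexin, was 21.8, 30.4 and 34.5 TPM at the lowest, median and highest CD F mouse and 32.1, 42.9 and 49.97 TPM in CD M. Only the lowest CD M mouse fell within the CD F range. The means were 29.04 ± 6.04 and 42.3 ± 6.38 TPM (SD, n = 6 each), a log2 fold change of -0.44 ± 0.10 (SE, edgeR adjusted p = 0.0315, exact permutation p = 0.00866). Thus 2 of 10 annexins were called, against 2.92% of all genes tested, and the same 2 passed the study's own threshold, as did 9.15% of all genes. That threshold is a p under 0.05 with a log2 fold change over 0.4 either way. The p was taken here as unadjusted, although the methods also name a Benjamini-Hochberg false discovery rate and do not make plain which is meant.

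Smooth muscle genes differed between these groups as well. Of a list of 10 that includes Acta2, Myh11 and Des, 6 were called lower in CD F and none higher, with a median log2 fold change of -0.59 against 0.01 over all genes. Their summed level was 2640 to 4093 TPM in CD F and 4149 to 6888 in CD M, without overlap, and none was at 0. With the smooth muscle score as a covariate the edgeR difference was -0.22 for Anxa6 (adjusted p = 0.422) and 0.80 for Anxa13 (adjusted p = 0.128). Smooth muscle level went with sex in these mice, so this fit cannot tell the 2 apart, and a lost call there decides nothing. With a colon epithelium score both stayed called. The call of Anxa6 was lost in 7 of the 12 fits that left out 1 library, those without CD F replicates 4, 5 or 6 or CD M replicates 2, 3, 4 or 5, where adjusted p ran from 0.0644 to 0.0874. That of Anxa13 held in 12 of 12.
Marker lists of other cell types were examined in the same mice. Of 5 fibroblast markers all had negative log2 fold changes (median -0.55), with 1 called lower and 3 past the study's threshold, and their summed level was 268 to 535 TPM in CD F and 485 to 823 in CD M. Of 7 endothelial markers none had a positive value (median -0.24), with 1 called lower and 2 past the study's threshold. The 8 B cell markers all had positive values (median 1.34), with 0 called and 4 past the study's threshold, and the median summed level was 32.04 TPM in CD F and 5.80 in CD M. Of 9 myeloid markers tested 0 were called, 3 passed the study's threshold lower and 1 higher (median -0.33). Their part in the annexin differences was not tested.

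The other 8 annexins had no CD sex difference past either threshold in the edgeR fit. Anxa1 passed the study's threshold with log2(TPM + 1), with log2(TPM + 0.1) and with the smooth muscle covariate. It was 101 ± 28.0 TPM in CD F and 135 ± 34.7 in CD M (SD, n = 6 each), with a log2 fold change of -0.22 and an adjusted p of 0.394 in edgeR. Anxa2 was 259 ± 53.3 and 320 ± 39.6 TPM (log2 fold change -0.21, adjusted p = 0.446). Anxa3 and Anxa4 had positive log2 fold changes of 0.21 and 0.10, and Anxa8 had -0.23.

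**Figure D4:**
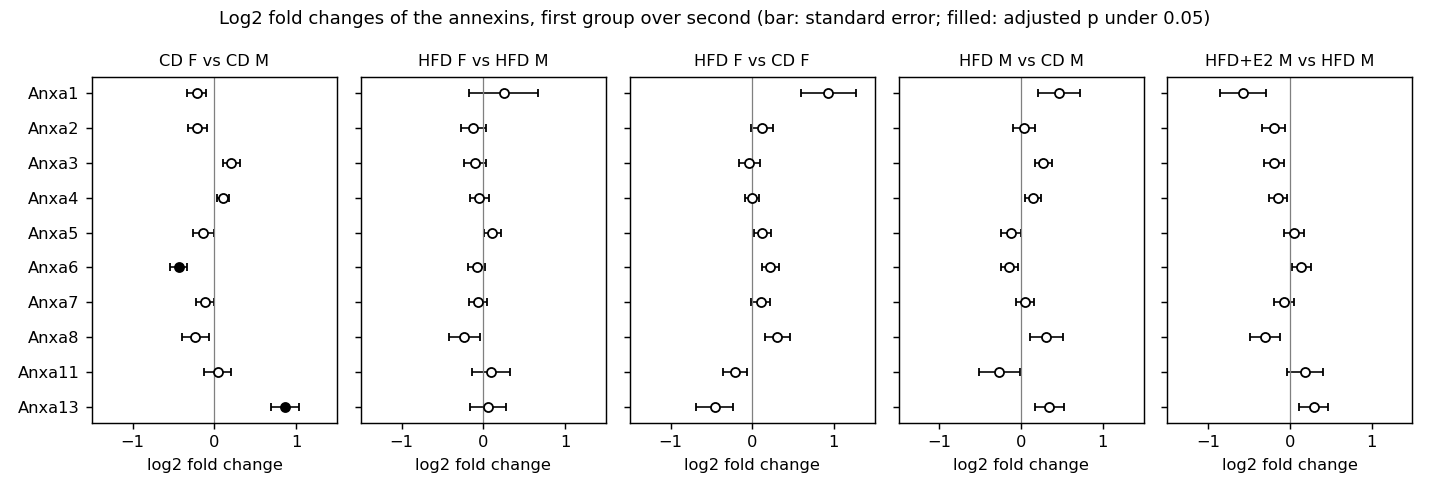
Log2 fold change of each annexin (x axes, first-named group over the second) in 5 comparisons of 6 against 6 mice. Points are edgeR estimates and bars standard errors, and filled points have an adjusted p under 0.05. Anxa13 at 0.86 and Anxa6 at -0.44 in CD F vs CD M are the filled points, and the bars of Anxa1 are the widest in HFD F vs HFD M.

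On the high-fat diet no annexin was called between the sexes by edgeR, at an unadjusted p under 0.05 or by DESeq2 (0 of 10 each, against 0.0988% of all genes called in edgeR). None passed the study's threshold either, which 3.09% of genes did. In the same comparison 773 of 15179 genes had an unadjusted p under 0.05 in edgeR, and DESeq2 called 50 of 28040. Anxa13 was 4.37 ± 1.57 TPM in HFD F and 4.44 ± 0.977 in HFD M, with a log2 fold change of 0.06. Anxa6 was 35.7 ± 7.96 and 39.3 ± 5.28 TPM (all SD, n = 6), with a log2 fold change of -0.08.
Anxa1 was 227 ± 168 TPM in HFD F and 189 ± 128 in HFD M, a log2 fold change of 0.25 ± 0.43 (SE, adjusted p = 0.927 in edgeR). It turned to -0.33 with the keratin score as a covariate and to -0.16 without the 6 keratin-bearing libraries. The latter fit rested on HFD F replicates 2 and 6 and HFD M replicates 1, 3, 5 and 6. Mean Krt5 was 43.0 TPM in HFD F and 4.13 in HFD M. Keratin thus partly went with sex, and the covariate fit does not settle the sign.

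Diet changed no annexin past the adjusted threshold in females. By edgeR 0 of 10 were called (0.0199% of all genes were), 2 had an unadjusted p under 0.05, and DESeq2 called 0. Of all genes, 856 of 15061 had an unadjusted p under 0.05 in edgeR, and DESeq2 called 214 of 27997. Anxa1 alone passed the study's threshold, with a log2 fold change of 0.93 ± 0.34 (SE, edgeR adjusted p = 0.651), and 3.67% of all genes passed it. Of the 6 HFD F mice, 4 lay above the whole CD F range and 1 below it, and the exact permutation test gave p = 0.0779. With the keratin score as a covariate the Anxa1 difference was 0.02, and without the 4 keratin-bearing HFD F libraries it was 0.10. Those 4 libraries had scores of 5.63 to 8.10, against at most -0.197 in CD F. Keratin thus went with diet here, so the covariate fit cannot tell the effects of diet and keratin apart. Leaving out the 4 libraries kept only HFD F replicates 2 and 6. Of the 23 squamous markers 8 passed the filter on low counts in this comparison, as Krt5 and Krt13 did not. Of these 8, 7 passed the study's threshold, all higher in HFD F. DESeq2, run without that filter, called 18 of 22 squamous markers and both score keratins.
Anxa6, with a log2 fold change of 0.22, was the other member with an unadjusted p under 0.05 (edgeR adjusted p = 0.879). Anxa13 was 5.80 TPM in CD F and 4.37 in HFD F (log2 fold change -0.46, adjusted p = 0.894).

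In males, too, diet changed no annexin past the adjusted threshold. By edgeR 0 of 10 were called, as were 0.0% of all genes, 1 had an unadjusted p under 0.05, and DESeq2 called 0. An unadjusted p under 0.05 was found for 904 of 14991 genes in edgeR, and DESeq2 called 26 of 27820 genes. No annexin passed the study's threshold, which 2.9% of genes did. The member with the lowest p was Anxa3, at 114 ± 20.6 TPM in CD M and 141 ± 28.9 in HFD M (SD, n = 6 each), with a log2 fold change of 0.27 (p = 0.0203, adjusted p = 0.807, exact permutation p = 0.0303). Anxa1 had a log2 fold change of 0.46 ± 0.26 (SE, adjusted p = 0.831), which was 0.12 without HFD M replicate 2, its highest library. It was 0.24 with the keratin covariate and 0.02 without the 2 keratin-bearing HFD M libraries. Only those libraries had high scores in this comparison, so these fits cannot tell diet and keratin apart.
Anxa13 had a log2 fold change of 0.34 in males (adjusted p = 0.826, exact permutation p = 0.0498). The interaction of sex and diet for Anxa13 was -0.81 ± 0.29 log2 units (SE, edgeR adjusted p = 0.626). It was the 1 member past the study's threshold for the interaction, against 5.18% of all genes, and it no longer passed without the keratin-bearing libraries or with the keratin covariate. High scores lay in the high-fat groups alone, so these fits cannot tell diet and keratin apart either. For the interaction 0 of 10 members were called by edgeR and 0 by DESeq2, as were 0.0% of all genes in edgeR, and 2 had an unadjusted p under 0.05. The second was Anxa6, at 0.36 (edgeR adjusted p = 0.679). For this term 1066 of 15800 genes had an unadjusted p under 0.05 in edgeR, and DESeq2 called 7 of 29643. Anxa1 had an interaction of 0.46 (adjusted p = 0.848), so a different response to diet between the sexes was not shown for it.

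Estrogen treatment of males on the high-fat diet was compared with the vehicle-treated HFD M mice, which also serve in the diet comparison above. By edgeR 0 of 10 annexins were called (0.00666% of all genes were), 0 had an unadjusted p under 0.05, and DESeq2 called 0. Among all genes, 1535 of 15010 had an unadjusted p under 0.05 in edgeR, and DESeq2 called 38 of 27547. The study's threshold was passed in edgeR by 0 members and 5.87% of genes, and with DESeq2 by 1 member, Anxa1, which also passed it with the replicate block and on both TPM scales. Anxa1 was 105 ± 28.4 TPM in HFD+E2 M and 189 ± 128 in HFD M (SD, n = 6 each), a log2 fold change of -0.57 ± 0.28 (SE, p = 0.0645, adjusted p = 0.506, exact permutation p = 0.158). Of the 6 treated mice, 4 lay below the whole HFD M range in TPM. On log2 CPM, the scale of the exact test, only treated replicates 4 (6.72) and 6 (6.80) lay below the lowest HFD M mouse (6.89). The value was -0.23 without HFD M replicate 2, -0.19 with the keratin covariate and -0.15 without the keratin-bearing libraries, which are absent from the treated group. The fits on keratin therefore cannot tell treatment and keratin apart.
No other member passed the adjusted threshold. Anxa2 was 262 ± 46.0 TPM with E2 and 341 ± 109 without (log2 fold change -0.20, adjusted p = 0.588), and Anxa8 was 123 ± 30.5 and 169 ± 56.2 TPM (log2 fold change -0.31, adjusted p = 0.535; SD, n = 6). Anxa4 was 91.3 ± 13.4 and 123 ± 28.1 TPM (SD, n = 6; log2 fold change -0.14, adjusted p = 0.619 in edgeR). The study's threshold was passed by Anxa4 with log2(TPM + 1) and log2(TPM + 0.1), and by Anxa8 with log2(TPM + 0.1). Anxa13 was 4.999 ± 0.646 and 4.44 ± 0.977 TPM (log2 fold change 0.29, adjusted p = 0.539 in edgeR, exact permutation p = 0.0433). In all, 50 such exact tests of single members were made over the 5 comparisons.

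The known partners of annexins were examined as a list of 16 genes, of which 12 passed the filter. S100a10, the partner of Anxa2, ranged from 209 to 417 TPM over the libraries and had no difference past a threshold in any of the 5 comparisons. The formyl peptide receptors through which Anxa1 acts were scarce. Fpr1 was at most 0.37 TPM and Fpr2 at most 0.55, both in HFD F, and Fpr3 was listed at 0 in every library, as was plasminogen (Plg).
In CD F vs CD M, edgeR called 0 of the 12 partners, whereas 4 had an unadjusted p under 0.05 and DESeq2 called 3. Over all genes, 2207 of 14922 had an unadjusted p under 0.05 in edgeR, and DESeq2 called 774 of 27698. All 4 were lower in CD F and passed the study's threshold. S100a4, a calcium-binding protein linked to cell motility, had a log2 fold change of -1.01 (edgeR adjusted p = 0.0505, DESeq2 0.0113). The plasminogen activator Plat had -0.76 (edgeR adjusted p = 0.0507, DESeq2 0.0130) and the membrane repair protein Dysf -0.51 (edgeR adjusted p = 0.0524, DESeq2 0.0130). S100a11, a partner of Anxa1, had -0.47 (edgeR adjusted p = 0.335). The median over the 12 was -0.09 and over all genes 0.01. The lists of smooth muscle, fibroblast and endothelial markers had negative medians in the same comparison, and their part in the partner values was not tested.
In the other 4 comparisons edgeR and DESeq2 called 0 partners, with at most 1 at an unadjusted p under 0.05 in each.

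Of 8 genes linked to glucocorticoid action, which induces Anxa1 in many tissues, edgeR and DESeq2 called 0 in each comparison, with 0 to 2 at an unadjusted p under 0.05. Per1 had a log2 fold change of 0.64 in HFD F vs CD F (adjusted p = 0.578 in edgeR). Sgk1 had 0.77 in HFD M vs CD M (adjusted p = 0.807) and -0.72 in HFD+E2 M vs HFD M (adjusted p = 0.479). The list's median log2 fold change was 0.17 in HFD F vs CD F and 0.15 in HFD M vs CD M, against 0.00 and -0.01 over all genes. None of the 8 was called on the keratin score by either tool.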

How the data were processed

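Raw counts per gene and TPM values were deposited for 30 colon libraries (stranded total RNA, ribosomal RNA removed). The authors aligned reads to GRCm38 with STAR, made the counts with featureCounts and the TPM values with StringTie; gene identifiers listed more than once in a TPM file (16 to 24 per library) were summed here. Libraries were grouped by their labels.

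Counts were tested with edgeR 4.0.16 (R 4.3.3; TMM scaling, filterByExpr, robust quasi-likelihood fit) on the 12 libraries of each comparison, on the 24 vehicle libraries for the interaction and on all 30 for the keratin slope, with Benjamini-Hochberg adjustment over all genes tested. A gene was called at an adjusted p under 0.05. The study's methods name DESeq2 with no version given, and version 1.42.0 was run here as an alternative; limma 3.58.1 was used on log2(TPM + 1). Log2 CPM had a prior count of 2. All members and listed partners were named by rule, with the 3 genes most alike each member (not reported here for Anxa8). The members and lists were chosen with earlier results of these data known. The procedure was tested on simulated data. For the slope, the simulated score was spread alike in every group, whereas here high scores lay in HFD F and HFD M alone. The simulation therefore does not cover that uneven spread. Depth, 8667177 to 17243712 counts per library, limits Anxa13 most.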

Additional observations from a re-analysis of the deposited data

Results flagged for a closer look

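In 50 sets of 6 mice, 1 for each annexin and group, the TPM value farthest from the rest was compared with Dixon's critical ratio for 6 values, the gap to the nearest mouse over the whole range. Chance flags about 1 in 20 sets, and 7 of the 50 were flagged. HFD M replicate 2 stood above its group in Anxa1 (437 TPM, ratio 0.709) and in Anxa8 (277 TPM, ratio 0.709), and it was 1 of the 6 libraries with Krt5 and Krt13 above 1 TPM. HFD+E2 M replicate 1 stood above its group in Anxa1 (159 TPM, ratio 0.641) and in Anxa2 (354 TPM, ratio 0.758), with Krt5 at 0.112 TPM and Krt13 listed at 0. Anxa4 was high in HFD F replicate 2 (155 TPM, ratio 0.732) and in HFD+E2 M replicate 5 (117 TPM, ratio 0.692). Anxa11 was high in HFD M replicate 6 (44.3 TPM, ratio 0.628).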

How the results depend on the processing

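Of the annexins called in CD F vs CD M, 1 in place of 2 remained with the keratin score as a covariate, with log2(TPM + 1) and with log2(TPM + 0.1), and 0 with the smooth muscle score; the 1 that remained was Anxa13. Past the study's threshold there, 3 passed on each TPM scale (Anxa1 added) and 2 with the smooth muscle score (Anxa1 and Anxa13). For the study's threshold, HFD F vs CD F gave 2 with DESeq2, 2 with no filter on low counts and 2 with all 30 libraries in one fit (Anxa13 beside Anxa1), and 0 with the keratin covariate. HFD M vs CD M gave 1 (Anxa13) with log2(TPM + 0.1). HFD+E2 M vs HFD M gave 1 with DESeq2 (Anxa1), 2 with log2(TPM + 1) and 3 with log2(TPM + 0.1), where the median of all genes was shifted by -0.13 and -0.15. The interaction gave 0 with the keratin covariate and 0 without the keratin-bearing libraries, and the keratin slope 0 called without them. The Anxa1 correlation was 0.523 without the 2 farthest libraries and -0.034 in the 24 below the gap, where keratin counts were few. It was 0.367 in the 6 above, without subtracting group means. Anxa1 changed sign with the keratin covariate in HFD F vs HFD M (-0.33) and in the interaction (-0.18), and without the keratin-bearing libraries in HFD F vs HFD M (-0.16) and in the slope (-0.018). The smooth muscle and keratin-library settings and the gap were chosen after seeing the data, and the cause of the changes was not tested. Leaving out 1 library gave 1 to 2 called in CD F vs CD M and 1 to 2 past the study's threshold there, 1 to 2 in HFD F vs CD F, 0 to 2 in HFD M vs CD M, 0 to 1 for E2, 1 to 2 for the interaction and 0 to 1 for the slope.

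Replicate numbers were used as a block only as an alternative. Same-numbered mice correlated over 0.1 in 2 to 5 of 6 pairs per comparison, with r from -0.218 (HFD F vs HFD M) to 0.468 (CD F vs CD M). Whether the numbers pair the mice or mark a shared batch was not tested. With the replicate block 2 annexins were called in CD F vs CD M, 0 passed the study's threshold in HFD F vs CD F and 1 (Anxa1) in HFD+E2 M vs HFD M. Over all genes the block moved the calls in CD F vs CD M from 435 to 941. DESeq2 called 774 genes there, the smooth muscle fit 152, the keratin fit 185 and log2(TPM + 1) 199.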

Other observations

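The genes most alike the annexins were taken from the correlation of group-centred log2 CPM over the 30 libraries among genes past the filter, as a description in which all points share library and depth. Anxa1 was most like Atp1b3 (r = 0.854), a subunit of the sodium pump, Emp1 (0.843), an epithelial membrane protein, and Lipk (0.824), a lipase. Anxa2 was most like S100a16 (0.881), Clic1 (0.860) and S100a14 (0.794), of which S100a16 and S100a14 belong to the same protein family as its partner S100a10. Anxa4 was most like Agr2 (0.876), a disulfide isomerase of goblet cells, Golm1 (0.870) and Acsm3 (0.866). Anxa6 was most like the smooth muscle actin Acta2 (0.750), then Hspb8 (0.740) and Ecscr (0.720). Anxa5 was most like Lsp1 (0.826), Hdac6 (0.799) and Bmp4 (0.792).

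Anxa7 was most like the interleukin 1 receptor antagonist Il1rn (0.883), Acadm (0.756) and Spint1 (0.747), and Anxa13 was most like Sval1 (0.804), Ginm1 (0.788) and Cldn12 (0.774). The values for Anxa3 were 0.911 for March8, 0.911 for Riok3 and 0.908 for BC016579, and those for Anxa11 were 0.908 for Map2k2, 0.902 for Aldh16a1 and 0.901 for Abcb8. Among the members themselves, r was highest between Anxa7 and Anxa8 (0.638), Anxa1 and Anxa2 (0.633) and Anxa2 and Anxa4 (0.613). It was lowest between Anxa3 and Anxa5 (-0.611) and between Anxa11 and Anxa13 (-0.596). The summed annexin level was 871 ± 140.0 TPM in CD F, 1017 ± 89.4 in CD M, 1106 ± 315 in HFD F, 1166 ± 322 in HFD M and 881 ± 133 in HFD+E2 M (SD, n = 6 each). Group differences in these sums were not tested. The median of all genes on log2(TPM + 1) was also shifted, by -0.09 in CD F vs CD M. It was shifted by 0.07 in HFD F vs CD F and by -0.13 in HFD+E2 M vs HFD M.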
